A study of Mus musculus with 32 samples.

Results

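A group of meiotic double-strand break sites lay inside H3K4me3 that both mouse strains share and had no PRDM9 peak of their own strain. They were chosen by peak positions alone. A site is an interval of the DMC1 list of 1 strain whose central 400 bp overlapped a common H3K4me3 interval by at least 1 bp and overlapped no PRDM9 interval of that strain. By this rule 483 of 14774 DMC1 sites in B6 (3.27%) and 256 of 15195 in RJ2 (1.68%) were members, 739 in all, and they are called PRDM9-negative common sites below. The other DMC1 sites with the central 400 bp in common H3K4me3, 74 in B6 and 248 in RJ2, had a PRDM9 peak of their strain and are called PRDM9-positive common sites. Of all DMC1 sites in common H3K4me3, 86.7% in B6 and 50.8% in RJ2 thus had no PRDM9 peak. A PRDM9 peak was listed at only 13.0% of autosomal DMC1 sites in B6 and 46.9% in RJ2. Its absence was therefore frequent in the whole lists too, and more so in B6.

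In meiosis, PRDM9 binds DNA through an array of zinc fingers and trimethylates histone H3 at lysine 4 and lysine 36 next to its site. SPO11 then cuts the DNA nearby, and DMC1 coats the resected single strands, so a DMC1 peak marks a break. H3K4me3 is also found at active promoters and some enhancers, where it does not need PRDM9, and mice without PRDM9 make their breaks at such places. An H3K4me3 interval shared by strains with different PRDM9 alleles is therefore mostly promoter or enhancer chromatin, and a break in it can in principle be placed by PRDM9 or without it.

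B6 mice (C57BL/6JOlaHsd) carry the Prdm9 allele Dom2, and RJ2 mice (B10.MOLSGR(A)-(D17Mit58-D17Jcs11)/Bdm) carry Cst on a congenic segment of chromosome 17 in a C57BL/10 background. DMC1 was mapped in whole testis at 5 weeks after birth with 2 replicates per strain, PRDM9 in whole testis of pooled mice at 13 days with 2 replicates per strain, and H3K4me3 in pachytene cells elutriated from adult testis with 1 library per strain. PRDM9 was also mapped at 13 days in mice without SPO11 (Spo11tm1M, 2 replicates) and without PRDM9 (B6;129P2-Prdm9tm1Ymat/J, 1 replicate), the first of which carries Dom2. The PRDM9 antibody was raised against the Cst protein and purified on the Dom2 protein. The ages and cells differ between the marks, and whole testis holds somatic cells and spermatogonia beside meiotic cells. The deposited lists are pooled over replicates and give interval positions on the mouse build mm9 with no score, so depth per site is unknown and the units of every comparison are sites, not mice. Intervals given after shares are 95% Clopper-Pearson intervals and cover counting error only. The paper states that the authors removed peaks found in both strains and signal judged nonspecific from mice without PRDM9. A site without a PRDM9 peak may thus be unbound, below their threshold or removed. In the deposited lists, an interval of mice without PRDM9 still lay at 1 of the 248 RJ2 PRDM9-positive common sites.

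The whole central 400 bp lay in common H3K4me3 at 288 B6 members (59.6%) and 147 RJ2 members (57.4%), and the centre base lay in it at 385 (79.7%) and 205 (80.1%). Just inside the limit, 26 B6 and 12 RJ2 members had 1 to 50 bp of the window covered, 2 bp and 1 bp at the least. Just outside it, 23 B6 and 11 RJ2 sites without PRDM9 lay 1 to 50 bp from a common interval, 2 bp at the nearest in both strains. The nearest PRDM9 interval of the strain was 629 bp from the window of a B6 member and 1037 bp from that of an RJ2 member, and 3 B6 members and 1 RJ2 member were on the Y chromosome, where no PRDM9 interval was listed. Strain-specific H3K4me3 also touched the window at 1 B6 and 6 RJ2 members.

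The motif of the strain's own PRDM9 allele was found at 239 of 483 members in B6 and 127 of 256 in RJ2. Scoring matrices 30 bp long were learned for each allele from PRDM9 peaks at DMC1 sites in strain-specific H3K4me3 on odd-numbered chromosomes, a group that no member belongs to. The seed word was GCAGCACC for Dom2, found in 72 of 801 learning windows and 9 of 1601 windows moved by 10 kb, and AGGTCACA for Cst, found in 163 of 3298 and 44 of 6591. Both strands were searched, and a hit is a score that 5% of moved windows reach in 200 bp, 9.90 for Dom2 and 10.4 for Cst. The sequences below are those of the 3 members per strain with the highest score of their own allele. They are printed from mm9 in the direction of the matrix, 80 bases each, with the 30 bases of the hit in capitals.
B6 Papln intron, chr12:85113350-85113429, minus strand: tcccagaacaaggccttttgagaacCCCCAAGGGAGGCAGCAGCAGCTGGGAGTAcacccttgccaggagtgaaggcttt
B6 intergenic near Gm10505, chr17:27502796-27502875, plus strand: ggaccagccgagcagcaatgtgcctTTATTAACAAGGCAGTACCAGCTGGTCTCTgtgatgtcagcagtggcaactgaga
B6 Eml6 intron, chr11:29923718-29923797, minus strand: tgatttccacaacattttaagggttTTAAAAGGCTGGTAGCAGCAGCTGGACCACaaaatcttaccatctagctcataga
RJ2 Plxna4 intron, chr6:32363411-32363490, minus strand: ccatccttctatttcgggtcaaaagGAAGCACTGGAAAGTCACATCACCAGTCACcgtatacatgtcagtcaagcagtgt
RJ2 intergenic near Ankrd16, chr2:11775890-11775969, minus strand: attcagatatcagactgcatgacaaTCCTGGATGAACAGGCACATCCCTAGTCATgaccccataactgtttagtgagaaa
RJ2 Atp5g3 exon, chr2:73747414-73747493, plus strand: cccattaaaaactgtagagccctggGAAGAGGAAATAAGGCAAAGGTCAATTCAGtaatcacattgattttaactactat

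The 3 B6 sequences scored 22.4, 21.9 and 21.5 with the Dom2 matrix, and the centres of their hits lay 68, 60 and 9 bp from the centre of the DMC1 interval. The 3 RJ2 sequences scored 20.7, 20.2 and 20.1 with the Cst matrix, at 53, 37 and 61 bp from the centre. Over all members with a hit of their own matrix in the central 200 bp, the hit lay at a median distance of 41 bp from the DMC1 centre in B6 (239 sites) and 45 bp in RJ2 (127 sites). The window searched allowed no hit centre beyond 85 bp, so these medians largely follow from it and do not show where hits gather. The hit lay wholly inside the common H3K4me3 interval at 176 of the 239 and 104 of the 127.

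Of the B6 members, 239 of 483 held a Dom2 hit (49.5%, interval 44.9 to 54.0%), against 15 of 256 RJ2 members (5.86%, interval 3.32 to 9.48%). The difference was 43.6 percentage points (interval 37.9 to 48.6, two-sided Fisher's exact test, adjusted p = 5.99e-37 over 15 tests). Of the RJ2 members, 127 of 256 held a Cst hit (49.6%, interval 43.3 to 55.9%), against 28 of 483 B6 members (5.80%, interval 3.89 to 8.27%), a difference of 43.8 points (interval 37.3 to 50.1, Fisher's exact test, adjusted p = 7.64e-42). The groups are not wholly separate, since a B6 and an RJ2 member overlapped in 34 pairs. Without members at a DMC1 peak of the other strain, an alternative chosen after seeing the data, the differences were 46.8 points for Dom2 and 44.7 points for Cst. Over all DMC1 sites, the Dom2 matrix hit 49.7% in B6 and 4.82% in RJ2, and the Cst matrix 51.6% in RJ2 and 4.30% in B6, so the members stood near the whole lists in both respects. Common H3K4me3 intervals that held no DMC1 centre had a Dom2 hit in their central 200 bp in 2276 of 40001 cases (5.69%) and a Cst hit in 1955 (4.89%), which is the level of the other strain's matrix at the members. Neither matrix hit at 232 B6 and 122 RJ2 members, and both did at 16 (3.31%) and 8 (3.12%).

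Hits of the own matrix were placed at the DMC1 centre. In the 2 bins of 100 bp that flank it, 28.4% and 28.0% of B6 members had a Dom2 hit, and between 300 bp and 1 kb away each bin held 2.28 to 4.76%. RJ2 members had a Cst hit in 27.3% and 26.6% of cases beside the centre and in 0.781 to 5.47% of cases in the bins 300 bp to 1 kb away. The other allele's matrix showed no such place, with 2.48 to 5.80% per bin for Cst in B6 members and 1.56 to 7.42% for Dom2 in RJ2 members.

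**Figure D1:**
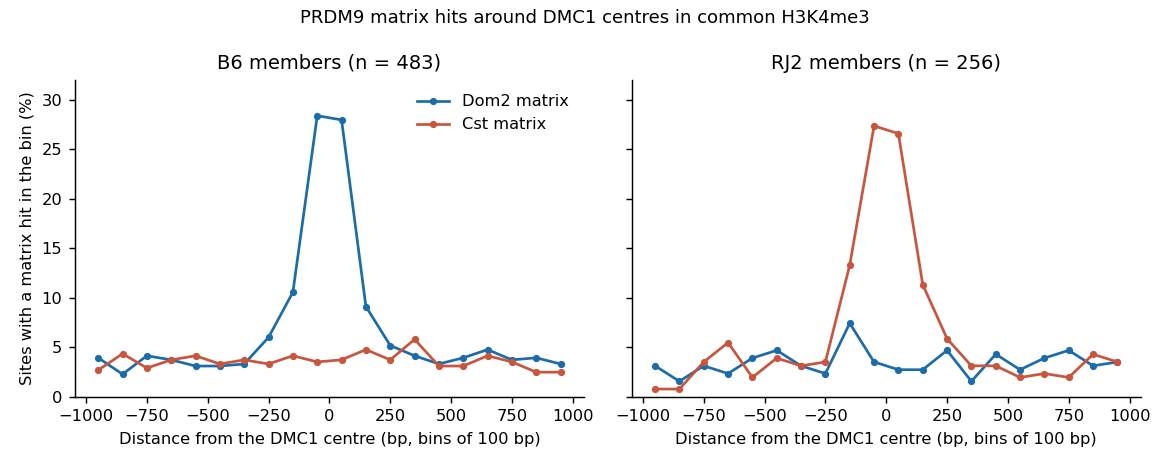
Share of PRDM9-negative common sites with a matrix hit (percent, vertical axis) in bins of 100 bp by distance from the DMC1 centre (bp, horizontal axis), for the Dom2 and the Cst matrix, in B6 (left) and RJ2 (right). The own allele's matrix reaches 28.4% in B6 and 27.3% in RJ2 beside the centre, while the other allele's matrix stays between 1.56 and 7.42% over all bins of both panels.

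The share with an own-matrix hit was set against that of sites where PRDM9 was detected. In B6, 37 of 74 PRDM9-positive common sites had a Dom2 hit, and the difference of members from them was -0.518 points (interval -12.5 to 11.4, Fisher's exact test, adjusted p = 1). In RJ2, 131 of 248 PRDM9-positive common sites had a Cst hit (52.8%), and the difference of members from them was -3.21 points (interval -11.8 to 5.48, Fisher's exact test, adjusted p = 0.716). The call changed with the search. When the central 400 bp were searched, members fell below PRDM9-positive sites in both strains, at 55.1% against 70.3% in B6 (Fisher's exact test, adjusted p = 0.0374) and 59.0% against 72.2% in RJ2 (adjusted p = 0.00749). With the limit that 1% of moved windows reach, the RJ2 members also fell below, by a difference of -13.1 points (Fisher's exact test, adjusted p = 0.00962), and so they did with a matrix of 20 bp, an alternative chosen after seeing the data, at -11.5 points (adjusted p = 0.0196).

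Against DMC1 sites in strain-specific H3K4me3 without a PRDM9 peak, the difference was -1.06 points in B6 (2183 of 4319, 50.5%, interval of the difference -5.74 to 3.63, Fisher's exact test, adjusted p = 0.769) and 1.69 points in RJ2 (2830 of 5906, 47.9%, interval -4.51 to 7.91, adjusted p = 0.769). No alternative gave a call for this comparison in either strain.

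**Figure D2:**
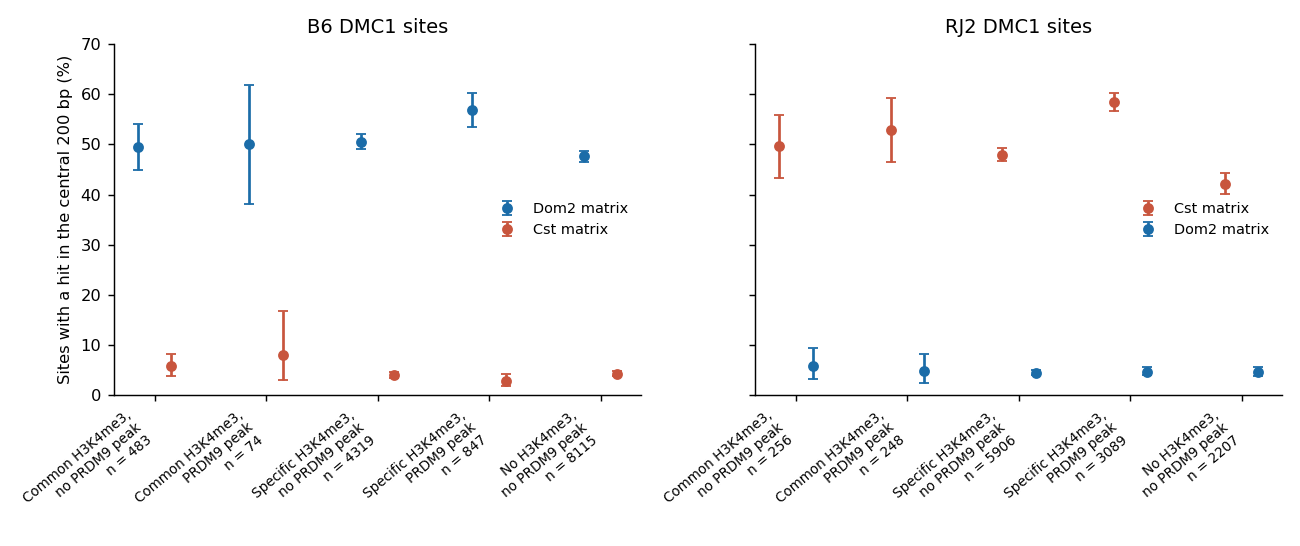
Share of DMC1 sites with a hit of the Dom2 or Cst matrix in the central 200 bp (percent, vertical axis) in 5 groups of sites by H3K4me3 and PRDM9 peak (horizontal axis), in B6 (left) and RJ2 (right), with 95% Clopper-Pearson intervals as error bars. Sites of the group with strain-specific H3K4me3 and PRDM9 are those on chromosomes not used for learning. The members, leftmost in each panel, stand at 49.5% in B6 and 49.6% in RJ2 with their own matrix and at 5.80% and 5.86% with the other.

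Among the members, those at promoters held the own motif less often. A promoter site is one whose DMC1 centre is within 1 kb of an annotated transcription start. In B6, 31 of 88 promoter members had a Dom2 hit (35.2%, interval 25.3 to 46.1%) against 208 of 395 others (52.7%), a difference of -17.4 points (interval -27.8 to -5.92, Fisher's exact test, adjusted p = 0.00980). In RJ2, 10 of 37 promoter members had a Cst hit (27.0%, interval 13.8 to 44.1%) against 117 of 219 others (53.4%), a difference of -26.4 points (interval -39.7 to -9.13, Fisher's exact test, adjusted p = 0.0101). Both promoter groups still stood above the hit share of common intervals without a DMC1 centre. Of PRDM9-positive common sites at promoters, 5 of 12 in B6 (41.7%) and 23 of 40 in RJ2 (57.5%) had a hit of their own matrix. Whether the lower share at promoters is particular to the members was not tested. The calls were lost in both strains with the stricter 1% limit, with the central 100 bp searched and with the 8-letter word at 1 mismatch, and under the last the B6 difference turned to 2.33 points. In RJ2 the call was also lost with the central 400 bp searched (-8.92 points), with the wider DMC1 intervals alone (-28.3 points) and with the 20 bp matrix (-18.5 points), so that 5 of 11 alternatives kept it, against 8 of 11 in B6. Promoter members were richer in GC and CpG than members as a whole in B6, with a median GC content of 48.0% against 45.5% and a median observed over expected CpG ratio of 0.382 against 0.193. In RJ2 the GC medians were 48.0% and 43.0% and the CpG ratios 0.223 and 0.177. The part of base composition in the motif shares was not tested. The GC box word GGGCGG, searched on both strands of the central 200 bp, lay at 10 of 88 promoter members and 12 of 395 others in B6, at 1 of 37 and 1 of 219 in RJ2, and at 1.92% and 1.60% of all DMC1 sites.

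Most members were not at promoters. Within 1 kb of a start lay 88 of 483 in B6 (18.2%, interval 14.9 to 22.0%) and 37 of 256 in RJ2 (14.5%, interval 10.4 to 19.4%), where all DMC1 sites gave 3.36% and 3.40%. A higher share than in the whole lists follows from the rule, since common H3K4me3 is rich in promoters. It was still below that of the common intervals themselves, of which 13827 of 41011 (33.7%) were centred within 1 kb of a start. Members were placed by the DMC1 centre and the intervals by their own, so the shares of members and intervals are not like for like. The strains differed by 3.77 points (interval -2.02 to 9.05, Fisher's exact test, adjusted p = 0.406). The PRDM9-positive common sites had 12 of 74 at promoters in B6 (16.2%, difference of members 2.003 points, interval -8.51 to 9.64, adjusted p = 0.801) and 40 of 248 in RJ2 (16.1%, difference -1.68 points, interval -8.02 to 4.63, adjusted p = 0.769, both Fisher's exact tests). Introns held 201 B6 and 102 RJ2 members (41.6% and 39.8%), exons 23 and 20 (4.76% and 7.81%), and 171 and 97 were intergenic (35.4% and 37.9%). The nearest start lay a median of 6550 bp away for B6 members and 7303 bp for RJ2 members, against 31302 bp and 30128 bp over all DMC1 sites.

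**Figure D3:**
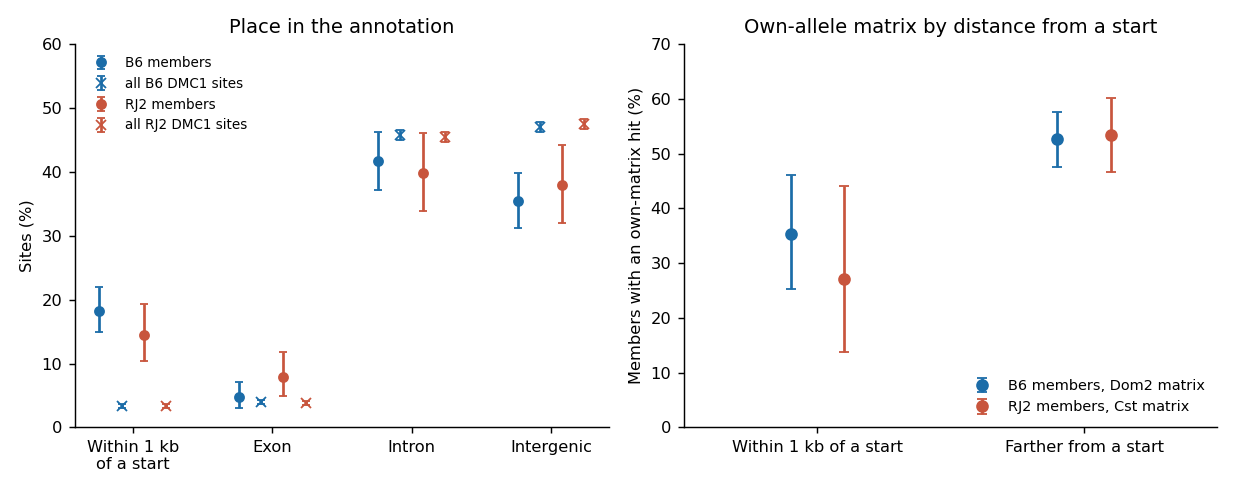
Left, share of sites (percent) within 1 kb of a transcription start, in exons, in introns and between genes, for PRDM9-negative common sites and for all DMC1 sites of B6 and RJ2. Right, share of members with a hit of their own allele's matrix (percent) within 1 kb of a start and farther away, 35.2% and 52.7% in B6 and 27.0% and 53.4% in RJ2. Error bars are 95% Clopper-Pearson intervals.

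The widest B6 member, 3616 bp on chromosome 9 from 123759359 to 123762974, had its centre 147 bp upstream of the start of Fyco1, which encodes an adaptor for the transport of autophagosomes. Its best Dom2 score was 4.08, under the limit. The next B6 member, 3184 bp, lay 818 bp into Cul4b on the X chromosome, the gene of a ubiquitin ligase scaffold, with a Dom2 score of 13.2. The third, 2984 bp, lay in an intron of Usp11, a deubiquitinase gene on the X, with a score of 0.278. Of these 3 sites, only that at Cul4b held the motif. Of the 5 widest promoter members of B6, the other 3 were at Mid1, Rps6ka6, a kinase gene, and the predicted gene Gm10800, with Dom2 scores of 9.51, 8.64 and 1.31, all under the limit.

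In RJ2 the widest member was intergenic on the X chromosome from 92241016 to 92244293, 3278 bp wide and 20634 bp from the start of Spin4, with a Cst score of 9.67. Gm10800 followed with 2756 bp and Mid1 with 2704 bp. The other wide promoter members of RJ2 were at Eef1g (2242 bp, Cst score 1.48), which encodes a translation elongation factor, at 1700025F22Rik (2094 bp, 4.04) and at Vdac2 (2054 bp, 7.41), a mitochondrial channel gene. All 5 of the widest RJ2 promoter members were under the Cst limit, as 4 of 5 in B6 were under the Dom2 limit.

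Members as a whole had narrower DMC1 intervals than PRDM9-positive common sites. The median width was 1766 bp in B6 (quartiles 1587 and 1964) against 2078 bp, and 1658 bp in RJ2 (quartiles 1499.5 and 1816.5) against 1771 bp, described without a test. The medians of all DMC1 sites were 1752 and 1698 bp. With B6 members split by DMC1 width into 3 groups of like size, the widest had a Dom2 hit in 70 of 160 cases (43.8%) and the narrowest in 86 of 161 (53.4%), which was not tested. In RJ2 these were 39 of 85 (45.9%) and 49 of 86 (57.0%).

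The common intervals that held members were of every size. Their median width was 1631 bp in B6 (quartiles 727 and 3311, range 10 to 11173) and 1575 bp in RJ2 (quartiles 796 and 3500, range 1 to 13653), while PRDM9-positive common sites sat in intervals of 2357 and 2170.5 bp and the whole list had a median of 1097 bp. A wider interval is more easily overlapped, so the rule itself can raise these widths above that of the whole list. Widths were not tested. The DMC1 centre lay a median of 379 bp from the centre of the common interval in B6 and 408 bp in RJ2, and the signed medians were 28 and 0.5 bp. The widest common interval with a B6 member, 11173 bp on chromosome 17, held a break 619 bp upstream of Txndc2, a thioredoxin gene of sperm, with a Dom2 score of 14.8. The next, 10382 bp on chromosome 11, held one 362 bp into 4930415F15Rik with a score of 5.48. In RJ2 the widest, 13653 bp on chromosome 12, held a break 1800 bp upstream of Angel1 with a Cst score of 13.7, and the next, 13105 bp on chromosome 19, held one in an intron of Mgea5, which encodes an enzyme that removes sugar from proteins, with a score of 4.37. No B6 interval held more than 1 member. In RJ2 a single interval held 2, on chromosome 3 from 137853439 to 137858921 near 4930579F01Rik, and both had a Cst hit, of 11.8 and 14.3.

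**Figure D4:**
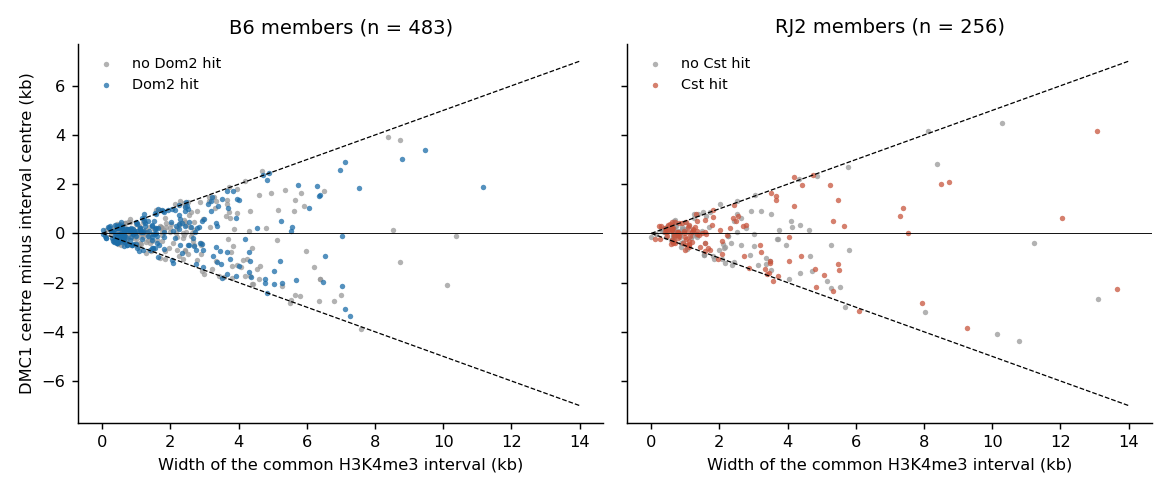
Signed distance of the DMC1 centre from the centre of its common H3K4me3 interval (kb, vertical axis) against the width of that interval (kb, horizontal axis), 1 point per member, in B6 (left) and RJ2 (right). Colour marks a hit of the own allele's matrix and the dashed lines are the edges of the interval. The points lie on both sides of 0, with medians of 28 bp in B6 and 0.5 bp in RJ2. The centre base lay in common H3K4me3 at 79.7% of B6 and 80.1% of RJ2 members, and points of the others fall outside the dashed lines.

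Of 33 annotated genes for meiotic breaks and strand exchange, 1 had a B6 member within 1 kb of a start and 1 an RJ2 member (3.03% each), against 0.349% and 0.157% of 26061 annotated genes. The first was Zcwpw1, which encodes a reader of the H3K4me3 and H3K36me3 marks that PRDM9 makes, 857 bp into the gene. The second was Prdm9 itself, 910 bp upstream of its start on chromosome 17 from 15701489 to 15702966. These counts of 1 are too small to set apart from the background. The best windows of the own matrix at both sites, under the limit with scores of 1.06 and 5.90, are shown for comparison with the sequences above, in the same form. In RJ2 the Prdm9 region comes from the donor of the congenic segment, and the letters are those of mm9.
B6 Zcwpw1, chr5:138229878-138229957, minus strand: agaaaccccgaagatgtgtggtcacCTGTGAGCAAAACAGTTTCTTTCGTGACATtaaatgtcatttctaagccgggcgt
RJ2 Prdm9, chr17:15702219-15702298, plus strand: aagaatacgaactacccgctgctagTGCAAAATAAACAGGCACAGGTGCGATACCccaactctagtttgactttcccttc

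Of 32 genes of spermatocytes and spermatids, 1 had an RJ2 member at a start, Prm2, whose protamine packs sperm DNA. The centre lay 491 bp upstream of the neighbouring gene Prm3, in a common interval of 5275 bp. Inside the gene body, a member lay in 1.13% of all annotated genes in B6 and 0.572% in RJ2, and the counts of genes with a member inside, 0 to 2 per list, are too small to set apart from these shares. Members lay inside Odf1 in both strains and Odf2 in B6, genes of the outer dense fibres of the sperm tail. The B6 and RJ2 breaks in Odf1 shared 1 common interval of 8722 bp without meeting, with a Cst hit of 12.2 at the RJ2 site and a Dom2 score of 4.11 at the B6 site. Of 18 genes of the synaptonemal complex and chromosome axis, 0 had a member at a start in either strain, and Stag2, a cohesin gene, held a member of both strains in an intron. Of 29 genes of histone methylation and chromatin, 0 had one at a start and Dnmt3b, a DNA methyltransferase gene, held a B6 member in an intron. The lists of 22 splicing, 30 ribosomal protein and 29 developmental transcription factor genes had 0 at starts and 0 inside in both strains.

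In B6 30 of 483 (6.21%, interval 4.23 to 8.75%) and in RJ2 18 of 256 (7.03%, interval 4.22 to 10.9%) were on the X, against 5.65% and 6.01% of all DMC1 sites. PRDM9-positive common sites were on the X in 1 of 74 cases in B6 (1.35%) and 3 of 248 in RJ2 (1.21%). The difference was 4.86 points in B6 (interval -1.33 to 7.61, Fisher's exact test, adjusted p = 0.224) and 5.82 points in RJ2 (interval 2.41 to 9.71, adjusted p = 0.00614). A PRDM9 peak was listed at 4.91% of X-linked and 13.0% of autosomal DMC1 sites in B6, and at 128 of 913 X-linked and 46.9% of autosomal sites in RJ2. The low share on the X thus covers the whole list. Members and PRDM9-positive common sites were split by that same peak, so their difference on the X is no separate result. The size of this part was not tested.

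Of the X-linked B6 members, 15 of 30 were at promoters (interval 31.3 to 68.7%), and 7 of 18 in RJ2 (38.9%, interval 17.3 to 64.3%). On the autosomes these were 70 of 450 (15.6%) and 29 of 237 (12.2%). The common intervals themselves, placed by their own centres, were at promoters in 51.9% of cases on the X and 33.1% on autosomes. These shares were compared after their values were seen and were not tested. The own matrix hit 5 of the 15 promoter members on the X in B6 and 2 of the 7 in RJ2. On the Y chromosome, all 3 B6 members and the only RJ2 member were at promoters, of 11 and 9 DMC1 sites there. They were 4 bp from the start of Uty, a histone demethylase homologue, 286 bp from that of Ddx3y, an RNA helicase gene, and 23 bp from that of Eif2s3y, a translation initiation factor gene needed by spermatogonia, and in RJ2 8 bp from the start of Uty. None of the 4 sites had a hit of either matrix. The highest score among them was 9.39, for Cst at Eif2s3y in B6.

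Some members were broken in both strains. The central 400 bp of 47 B6 members (9.73%, interval 7.24 to 12.7%) overlapped those of an RJ2 DMC1 site, and 39 RJ2 members (15.2%, interval 11.1 to 20.2%) overlapped those of a B6 site, where all DMC1 sites gave 0.887% and 0.862%. Of the 131 B6 sites with such an overlap, 35.9% were members, as were 29.8% of the 131 in RJ2. In PRDM9-positive common sites the overlap was found at 4 of 74 (5.41%) and 14 of 248 (5.65%). DMC1 sites in strain-specific H3K4me3 without a PRDM9 peak gave 0.0926% in B6 and 0.305% in RJ2. A place where both strains gain H3K4me3 counts as common, so the rule itself can raise the members' shares. Its part was not tested. When any DMC1 centre of the other strain in the same common interval counted, members had one in 72 of 483 cases in B6 (14.9%) against 8 of 74 (10.8%), a difference of 4.10 points (interval -5.45 to 10.4, Fisher's exact test, adjusted p = 0.716). In RJ2 they had one in 53 of 256 (20.7%) against 27 of 248 (10.9%), a difference of 9.82 points (interval 3.45 to 16.1, Fisher's exact test, adjusted p = 0.00980). The removal of PRDM9 peaks found in both strains would move a site broken and bound in both into the members, and the part of this step in the difference was not tested.

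A member of B6 and a member of RJ2 overlapped in 34 pairs, with centres a median of 139.5 bp apart and within 100 bp in 15 pairs. The B6 site held a Dom2 hit in 11 pairs and the RJ2 site a Cst hit in 17. Counting hits in either site of a pair, both matrices were present in 9 pairs and neither in 11. Among the pairs, 7 were at promoters and 6 on the X chromosome. The genes with a promoter member in both strains were Mid1, Gm10800, Gm10801, Upf2, Uty, Zfp462 and 2610002M06Rik, 7 of 87 such genes in B6 (8.05%) and of 36 in RJ2 (19.4%).

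Mid1, a ubiquitin ligase gene that spans the boundary of the pseudoautosomal region in these mice, had 2 pairs. At the first, the B6 interval ran from 166316548 to 166319529 and the RJ2 interval from 166316743 to 166319446, with centres 56 bp apart. At the second, they ran from 166364324 to 166366115 and from 166364314 to 166366109, with centres 8 bp apart. None of the 4 Mid1 sites had a hit of either matrix. The pairs at Gm10800 and Gm10801 on chromosome 2, 31 and 8 bp apart, had none either, nor had those at 2610002M06Rik (5 bp), Zfp462 (18 bp) and Uty (12 bp).

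In other pairs each allele's motif was present. The pair with the highest lower score of both matrices in the B6 site was in an intron of Pcdh9, a cell adhesion gene, with a Dom2 score of 17.6 and a Cst score of 18.04, and centres 72 bp apart. The next was in an intron of Plxna4, with 17.6 and 20.7 and centres 8 bp apart. Both are shown on the plus strand of mm9 with the hits of both matrices in capitals. In the first the Dom2 hit comes before the Cst hit, and in the second after it.
Pcdh9, chr14:93656256-93656402, plus strand: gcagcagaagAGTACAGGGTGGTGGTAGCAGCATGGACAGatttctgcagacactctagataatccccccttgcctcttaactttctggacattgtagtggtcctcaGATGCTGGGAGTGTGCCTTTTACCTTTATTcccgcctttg
Plxna4, chr6:32363426-32363518, plus strand: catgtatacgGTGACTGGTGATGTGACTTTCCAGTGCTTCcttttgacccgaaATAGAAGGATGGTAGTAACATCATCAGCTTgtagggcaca

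Some members carried a PRDM9 peak of another genotype. A PRDM9 interval of RJ2 lay at the central 400 bp of 20 B6 members (4.14%, interval 2.55 to 6.32%) and one of B6 at 4 RJ2 members (1.56%, interval 0.427 to 3.95%), where all DMC1 sites gave 0.460% in B6 and 0.0329% in RJ2. These shares were not compared by a test, and the requirement of common H3K4me3 can itself raise those of the members. At 13 of the 20 and at all 4, the strain of that PRDM9 peak also had a DMC1 site there. Of the 20 B6 members, 11 held a Dom2 hit and 3 a Cst hit, and of the 4 RJ2 members 3 held a Cst hit and 0 a Dom2 hit. The B6 member in Dnmt3b was one of the 20, under an RJ2 PRDM9 interval from 153486883 to 153487655. The widest of the 20 were at Gm14061, Mink1 and G630016G05Rik, with DMC1 intervals of 2200, 2164 and 2126 bp, and none of these 3 had a hit of either matrix. No B6 PRDM9 interval overlapped an RJ2 one in the lists after the authors' removal, so a PRDM9-positive site could carry the other strain's peak only beside its own.

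PRDM9 intervals of mice without SPO11, which express Dom2, lay at 5 B6 members (1.04%, interval 0.337 to 2.40%), against 6.67% of all B6 DMC1 sites. The allele is that of the B6 PRDM9 list, which the rule keeps away from B6 members. They lay at 8 RJ2 members (3.12%, interval 1.36 to 6.06%), against 0.0790% of all RJ2 DMC1 sites, or 12 sites in all. Of the member sites with such an interval, 4 were the same places in both strains, members of a pair each, near Spin4 and in introns of Rhot1, Gramd1b and Pcdh9. The other B6 member was near Tmem26. The other 4 RJ2 members, at Galnt5, Pard3b, Gm15627 and 5730419I09Rik, also had a B6 PRDM9 interval and a B6 DMC1 site. Mice without PRDM9 had an interval at 0 of 483 B6 members and at 0 of 256 RJ2 members. By the limit of 3 counts over the number of sites, these allow shares of up to 0.621% and 1.17%, which lie above the shares over all DMC1 sites, 0.0948% in B6 and 0.125% in RJ2, so a difference from the whole lists was not detectable. In the whole DMC1 interval in place of its centre, 35 B6 and 7 RJ2 members had a PRDM9 interval of the other strain, and 2 B6 members had one of mice without PRDM9.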

How the data were processed

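ChIP-seq peak lists were read as the authors deposited them. Per the labels, reads were placed on mm9. The authors called peaks with MACS, kept those reproducible between replicates for PRDM9 and DMC1, intersected 3 calls for H3K4me3, and pooled replicates. The deposited values are interval positions, with no score or count per replicate, so depth per site is unknown. H3K36me3 libraries were not used. A member met the overlap rule given above. Motif matrices were learned in 5 rounds from 8-letter words on 150 bp around PRDM9 peak centres. Transcription starts and genes came from GENCODE M1, on the same build. Shares have Clopper-Pearson intervals. The 15 comparisons used two-sided Fisher's exact tests with Benjamini-Hochberg adjustment, and intervals of differences are Newcombe's. The word, limit, window, width, coverage, chromosomes and distance to a start were varied.

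Members, lists and tests were chosen with earlier results of these data known. Named sites are the widest per strain, at promoters, at genes of the 7 lists, at DMC1 or PRDM9 peaks of other genotypes, with the highest own score or in the widest common intervals. The choice by own score left out chromosome 18. The code was tested on simulated data, where overlaps matched a brute-force search in 500 of 500 cases, planted motifs passed the limit in 243 of 300 windows and random sequence in 56 of 1000. Figures were drawn with matplotlib 3.10.9. Tests ran in scipy 1.17.1 with p-values adjusted by statsmodels 0.14.6, on Python 3.11.15 with numpy 2.4.6.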

Additional observations from a re-analysis of the deposited data

Results flagged for a closer look

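PRDM9 intervals of mice without SPO11 stood outside the comparisons between groups of sites and were present at 5 B6 members and 8 RJ2 members, while intervals of mice without PRDM9 were at 0 of both. Over all DMC1 sites the shares were 6.67% in B6 and 0.0790% in RJ2 for mice without SPO11, and 0.0948% and 0.125% for mice without PRDM9, so the share in members was below that of the whole list in B6 and above it in RJ2 for the former. Mice without SPO11 carry Dom2, and the rule kept PRDM9 intervals of B6, with the same allele, away from B6 members. The lower share in B6 therefore follows from the rule and is no separate result. Of the places with an interval of mice without SPO11, 4 were members in both strains. The authors' removal of PRDM9 peaks found in both strains moves with this result, and 4 of the 8 RJ2 members still had a listed B6 PRDM9 interval. The requirement of common H3K4me3 can itself raise the share in RJ2 members. The part of either was not tested.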

How the results depend on the processing

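The Dom2 difference between B6 and RJ2 members kept its direction and call under all 12 alternatives, from 16.3 to 48.0 points, and the Cst difference under 11 of 12. With the 8-letter word at 1 mismatch the Cst difference was 8.18 points (Fisher's exact test, adjusted p = 0.0545). The motif share of members against PRDM9-positive common sites gained a call at -15.2 points in B6 and -13.2 points in RJ2 with the central 400 bp searched, and in RJ2 at -13.1 points with the 1% limit and -11.5 points with the 20 bp matrix. The promoter difference in motif share lost its call in B6 with the 1% limit (-11.7 points) and the central 100 bp (-8.66 points), and turned to 2.33 points with the word at 1 mismatch. In RJ2 it lost its call with the 1% limit (-15.3 points), the central 400 bp (-8.92 points), the central 100 bp (-6.20 points), the word (-5.81 points), the wider DMC1 intervals (-28.3 points) and the 20 bp matrix (-18.5 points). The cause was not tested. The whole DMC1 interval gave 35 B6 and 7 RJ2 members with the other strain's PRDM9 and 2 B6 members with an interval of mice without PRDM9. Calls for promoters, the X chromosome and breaks of the other strain were the same under all alternatives run, and the number of members ranged from 389 to 693 in B6 and 204 to 364 in RJ2.

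The 20 bp matrix, the leaving out of members at a break of the other strain and the use of autosomes alone were chosen after seeing the data. No paired analysis was possible because the lists pool the replicates, and leaving out a replicate was not run for the same reason. Widths stand in for no strength, and RJ2 sites were searched on the mm9 sequence.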
